A study of Homo sapiens with 15 samples.

Results

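The genes described here are the 8 that make, break down, carry and sense adenosine in lung fibroblasts and small cell lung cancer (SCLC) cells grown together or apart. They are NT5E and ENTPD1, the enzymes that strip phosphates from nucleotides outside the cell; ADORA1, ADORA2A and ADORA2B, receptors for adenosine; ADA and ADK, the enzymes that remove it; and SLC29A1, a transporter that carries it across the membrane. They were picked by gene symbol. All 8 were listed in both expression tables, out of 16382 genes in the MRC5 table, 16076 in the H196 table and 17138 in either.

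The study sequenced the mRNA of MRC5 human lung fibroblasts and of H196 cells, a human SCLC line without neuroendocrine character, after a week of culture. MRC5_Mo and H196_Mo were the lines cultured separately; MRC5_CoH196 and H196_Co were each line after co-culture with the other; and MRC5_CoH69 were fibroblasts co-cultured with H69, a neuroendocrine SCLC line whose own RNA was not analysed here. Each group had 3 libraries from parallel replicates, so the p-values measure the spread between cultures of 1 line and not between donors or tumours. No gene was altered in any group, and MRC5 and H196 were kept in different media, so that line, medium and table cannot be told apart in a comparison of the lines. The medium of the co-cultures was not stated. As both lines shared it there, a change of medium cannot be told apart from co-culture for at least 1 of them. This also holds for the difference between their responses.

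The libraries held between 16073597 and 19170560 counts. Of 9 fibroblast markers (COL1A1, COL1A2, COL3A1, PDGFRA, PDGFRB, THY1, LUM, DCN and FAP), the summed level was 26949 to 30000 CPM (counts scaled to a common library size) in MRC5_Mo, 30874 to 31883 in MRC5_CoH69, 12887 to 13643 in MRC5_CoH196, and at most 3.15 in H196 libraries, where THY1 was at 0. The 6 neuroendocrine markers summed to 17.7 to 19.9 CPM in H196 and to at most 0.487 in MRC5, with INSM1 at 0 throughout. In the co-cultures the lines shared medium but were kept apart by the membrane of a transwell insert. To measure H196 RNA in the fibroblast libraries, 95 genes were summed whose level was 20 CPM or more throughout H196 and below 0.5 CPM throughout MRC5_Mo. Their summed level was 0.299% to 0.779% of that of H196_Mo in MRC5_CoH196, 0.105% to 0.131% in MRC5_CoH69 and 0.113% to 0.125% in MRC5_Mo, and values that bear on single genes are given beside them. The lower sum in MRC5_CoH196 went with lower collagen levels: against MRC5_Mo, COL1A1 and COL3A1 fell (log2 -1.57 and -2.09), COL1A2 was at log2 -0.56 under the fold limit, PDGFRB rose (log2 0.67), and the median of the 9 was 0.15. The 195 genes that marked MRC5 in the same way summed to 99.0% to 101% of their MRC5_Mo level in MRC5_CoH196. These 195 were picked at 20 CPM or more in every MRC5 library, MRC5_CoH196 included. Genes that fell below that level with H196 were therefore left out, and the sum cannot show such losses.

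Adenosine outside cells comes mainly from released ATP. ENTPD1 (CD39) takes ATP and ADP to AMP, and NT5E (CD73) takes AMP to adenosine. Adenosine then acts on receptors coupled to G proteins: ADORA1 lowers cyclic AMP (cAMP) inside the cell, whereas ADORA2A and ADORA2B raise it. It is cleared by uptake through SLC29A1 (ENT1), by phosphorylation back to AMP by ADK and by deamination to inosine by ADA. In tumours adenosine is known for restraining T cells, and low oxygen is known to raise NT5E and ADORA2B in several cell types.

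Levels are given as FPKM (fragments scaled to transcript length and library size), which allows genes of different length to be compared, or as the estimated read counts behind them. Differences are log2 fold changes from edgeR's quasi-likelihood test on the counts, with their standard error (SE) and the Benjamini-Hochberg adjusted p over all genes tested. A gene was called differentially expressed (DEG) when its adjusted p was below 0.05 and its log2 fold change exceeded 0.58 in either direction, the limit used in the study.

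In MRC5 fibroblasts co-cultured with H196, ADORA2A, ADORA2B and ADA rose and ADORA1 fell relative to MRC5_Mo. Of the 8 genes, 4 were DEGs, and DEGs made up 31.9% of all 12819 genes tested in this comparison, with 17.2% higher and 14.7% lower, so the 3 genes that rose and the 1 that fell stand against a broad change of the transcriptome. The MRC5_CoH196 and MRC5_Mo libraries did not overlap in CPM for 6 of the 8, as for 75.5% of all genes. Their median log2 fold change was 0.11, beside -0.003 over all genes. On the log2(FPKM + 1) scale the median of all genes moved to -0.13 and the split of DEGs from 2207 higher and 1885 lower to 915 higher and 2082 lower, so directions are given below relative to that shift where they differ. Co-culture with H69 gave no DEG among the 8 by edgeR, DESeq2 or limma, against 0.554% of all genes by edgeR. By edgeR 1 of the 8 had an adjusted p under 0.05, beside 6.7% of all genes. The libraries did not overlap for 2 of the 8, beside 25.7% of all genes. In H196 cells, 6 of the 8 passed the filter on low counts. None was a DEG by any of the 3 tools after co-culture with MRC5, against 3.86% of all genes by edgeR. By edgeR 2 of the 6 had an adjusted p under 0.05, beside 19.8% of all genes. The libraries of H196_Co and H196_Mo did not overlap for 4 of the 6, beside 37.2% of all genes.

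**Figure D1:**
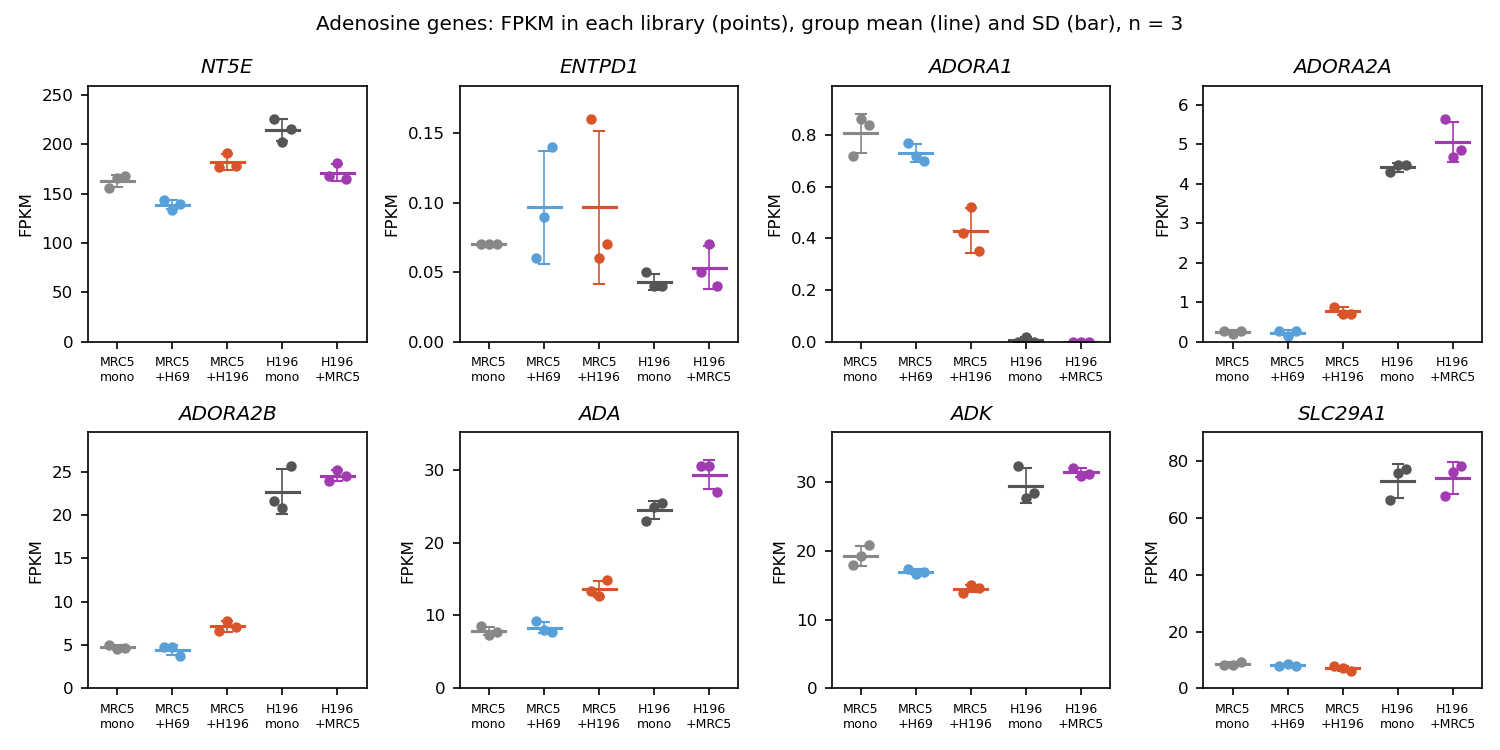
FPKM (linear axes from 0) of the 8 genes in each library of the 5 groups, with the group mean as a line and the SD as a bar (n = 3 per group). NT5E was at 133.82 FPKM or more in every library, ADORA1 was read almost only in MRC5, and ADORA2A, ADORA2B, ADA, ADK and SLC29A1 were higher in H196 than in MRC5.

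NT5E (gene ID 4907, chr6:85450083-85495784, plus strand, GRCh38.p13) was by far the most abundant of the 8. In MRC5_Mo it stood at 155.89, 165.44 and 167.52 FPKM, in MRC5_CoH69 at 143.09, 133.82 and 139.34, and in MRC5_CoH196 at 176.88, 190.99 and 177.74. In H196_Mo it stood at 225.14, 202.40 and 215.41 FPKM, and in H196_Co at 167.84, 180.91 and 164.44. Within each line the groups did not overlap: fibroblasts held most NT5E RNA with H196 and least with H69, and H196 cells held less in co-culture than alone. By mean FPKM the order of the groups was H196_Mo, MRC5_CoH196, H196_Co, MRC5_Mo and MRC5_CoH69, with overlapping libraries between MRC5_CoH196 and H196_Co and between H196_Co and MRC5_Mo. Between 2.49% and 3.69% of the genes listed had a higher mean FPKM, so the gene was among the more abundant transcripts of both lines in every condition.

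The changes of NT5E were several times their SE but all under the fold limit. Against MRC5_Mo, NT5E was 1.26-fold higher in MRC5_CoH196 (log2 0.33, SE 0.042, adjusted p = 1.27e-07), where 74.3% of all genes had an adjusted p under 0.05 at some fold. It was lower in MRC5_CoH69 (log2 -0.22, SE 0.042, adjusted p = 0.00161), and here only 6.7% of all genes had an adjusted p under the threshold. With all libraries in the fit NT5E was the only one of the 8 genes for which that comparison gave such a p, and ADK was the other when MRC5_Mo replicate 1 was left out. Between the co-cultures the difference was log2 0.55 (SE 0.042, adjusted p = 1.9e-11), just short of the limit of 0.58, and it was larger than the spread between replicates. On the log2(FPKM + 1) scale the difference of MRC5_CoH196 from MRC5_Mo was 0.16, or 0.29 above the median of all genes.

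In H196 cells the difference went the other way. NT5E was lower in H196_Co than in H196_Mo (log2 -0.25, SE 0.069, adjusted p = 0.0149), and 19.8% of all genes had an adjusted p under 0.05 in this comparison. The adjusted p became 0.0796 without H196_Co replicate 3 and 0.0733 without H196_Mo replicate 3. The difference between the responses of H196 and of MRC5 to their co-culture was log2 -0.56 (SE 0.073, adjusted p = 4.03e-07), with 49.8% of all genes under 0.05 by that test. Whether NT5E differs between the lines grown alone depended on the scale: the edgeR log2 fold change of H196_Mo over MRC5_Mo was -0.05 (SE 0.051, adjusted p = 0.373), whereas on log2(FPKM + 1) it was 0.39, where the median of all genes was 0.32.

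The 250 bases in front of the RefSeq start of NT5E and of ADORA2B are shown, as these are the surface enzyme with the highest level and the receptor for which low oxygen is a known regulator. Capitals mark TGACG, the core of the element bound by cAMP-response factors, searched on both strands, and ACGTG, the core of the hypoxia response element, would be marked in the same way. Both sequences read 5′ to 3′ on the plus strand and come from RefSeq (GRCh38.p14), NT5E from chr6:85449833-85450082 and ADORA2B from chr17:15944880-15945129.
NT5E: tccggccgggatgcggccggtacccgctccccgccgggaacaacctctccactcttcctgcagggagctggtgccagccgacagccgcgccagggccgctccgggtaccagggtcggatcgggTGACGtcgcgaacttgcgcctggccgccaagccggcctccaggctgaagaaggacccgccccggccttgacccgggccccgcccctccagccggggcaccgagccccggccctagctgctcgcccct
ADORA2B: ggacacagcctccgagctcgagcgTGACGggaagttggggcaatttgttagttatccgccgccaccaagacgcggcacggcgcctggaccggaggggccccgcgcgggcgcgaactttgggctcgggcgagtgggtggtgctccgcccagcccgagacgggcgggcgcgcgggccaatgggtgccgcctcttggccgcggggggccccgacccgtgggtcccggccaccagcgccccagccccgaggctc
TGACG began 127 bases before the start of NT5E and 226 bases before that of ADORA2B, and neither window held ACGTG. RefSeq windows were matched for 7 of the 8 genes, 13 windows in all (5 for ENTPD1, 2 each for ADK and SLC29A1). TGACG was found in 5 of the 13, those of NT5E, ADORA2B, ENTPD1 and ADK, and ACGTG in 1, a window of SLC29A1. Among all 35116 windows of the same length 21.2% held TGACG and 18.5% held ACGTG. A match is a stretch of letters and not a measured binding site, and the motifs were picked after the values had been seen.

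ENTPD1 (gene ID 953, chr10:95694235-95878939, plus strand), the enzyme that supplies AMP to NT5E, was close to the limit of detection. Its counts were 8, 8 and 12 in MRC5_Mo, 13, 11 and 11 in MRC5_CoH69, and 10, 9.24 and 2 in MRC5_CoH196. In H196_Mo it had 9 counts in each library, and in H196_Co 11, 14 and 9. Within each line the groups overlapped by FPKM, and the level stayed between 0.04 and 0.16 FPKM in all libraries. The libraries of H196_Mo, at 0.04 to 0.05 FPKM, lay below those of MRC5_Mo, at 0.07 each (edgeR, adjusted p = 0.415). The fold change was imprecise: between MRC5_CoH196 and MRC5_Mo it was log2 -0.25 with an interval from -1.12 to 0.61 (adjusted p = 0.615), and its sign turned with the scale and when MRC5_CoH196 replicate 3 was left out (log2 0.18). No change of ENTPD1 was therefore called, and a change within that interval could not be told from none at this depth. In H196 the gene was left out of the test by the count filter.

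The receptors ADORA2A and ADORA2B, which raise cAMP, were the members that rose most clearly in fibroblasts with H196, together with ADA. ADORA2A (gene ID 135, chr22:24423597-24442357, plus strand) had 11, 8 and 11 counts in MRC5_Mo, 11, 6 and 11 in MRC5_CoH69, and 37, 29 and 30 in MRC5_CoH196. The lowest MRC5_CoH196 library was above the highest library of the other fibroblast groups. The rise over MRC5_Mo was 3.54-fold (log2 1.82, SE 0.28, adjusted p = 2.31e-06) and that over MRC5_CoH69 3.77-fold (log2 1.91, SE 0.28, adjusted p = 1.6e-06), whereas MRC5_CoH69 and MRC5_Mo differed by log2 -0.09 (SE 0.36, adjusted p = 0.927). Between the co-cultures, where 28.2% of all genes were DEGs (15.2% higher and 13.1% lower with H196), ADORA2A, ADORA2B and ADA were again higher and ADORA1 lower with H196, 5 of the 8 had an adjusted p under 0.05 at some fold (72.3% of all genes) and 6 did not overlap (73.1%). The level stayed low, from 0.25 ± 0.044 FPKM in MRC5_Mo to 0.77 ± 0.10 FPKM in MRC5_CoH196 (SD, n = 3), with 70.0% of the genes listed above it.

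H196 cells held far more ADORA2A than fibroblasts did. The level was 4.29, 4.47 and 4.48 FPKM in H196_Mo and 5.63, 4.67 and 4.86 FPKM in H196_Co, and every H196_Co library was above every H196_Mo library. The difference of H196_Co from H196_Mo, log2 0.30 (SE 0.11), had an adjusted p of 0.0724, which became 0.0383 without H196_Co replicate 2. H196_Mo exceeded MRC5_Mo 12.9-fold (log2 3.69, SE 0.20, adjusted p = 3.2e-16). As the partner cells express it, the share of H196 RNA was set beside the rise in MRC5_CoH196: the highest share measured with the 95 H196 genes, 0.779%, would add 0.0883 CPM to ADORA2A, where the mean rose by 1.31 CPM over MRC5_Mo.

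ADORA2B (gene ID 136, chr17:15927563-15975746, plus strand), which responds to higher concentrations of adenosine than the other receptors do, was the most abundant receptor in every group. It stood at 5.02, 4.51 and 4.70 FPKM in MRC5_Mo, 4.72, 4.73 and 3.72 in MRC5_CoH69, and 6.61, 7.82 and 7.03 in MRC5_CoH196. The MRC5_CoH196 libraries lay above the other fibroblast libraries, which overlapped each other. The rise over MRC5_Mo was 1.66-fold (log2 0.73, SE 0.11, adjusted p = 2.16e-06) and that over MRC5_CoH69 1.82-fold (log2 0.87, SE 0.11, adjusted p = 2.39e-07). On log2(FPKM + 1) ADORA2A and ADORA2B were 0.63 and 0.64 above the median of all genes in MRC5_CoH196 against MRC5_Mo, and 0.50 each before that shift, which is under the fold limit.

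In H196 cells ADORA2B stood at 21.66, 20.78 and 25.66 FPKM alone and at 23.93, 25.14 and 24.50 with MRC5. By FPKM these ranges overlapped, and the log2 difference of 0.17 (SE 0.087) had an adjusted p of 0.171. The interval of that difference ran from 0.0017 to 0.34, under the limit for a DEG. H196_Mo exceeded MRC5_Mo 3.62-fold (log2 1.86, SE 0.098, adjusted p = 2.67e-16). The share of 0.779% would add 0.261 CPM of ADORA2B to the fibroblast libraries, where the mean rose by 3.93 CPM.

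ADORA1 (gene ID 134, chr1:203115468-203167405, plus strand), the receptor that lowers cAMP, fell in fibroblasts with H196. It had 35, 41 and 39 counts in MRC5_Mo, 37, 35 and 36 in MRC5_CoH69, and 21, 24 and 17 in MRC5_CoH196. The last group did not overlap the other groups. The log2 fold change was -0.73 against MRC5_Mo (SE 0.22, adjusted p = 0.00388) and -0.65 against MRC5_CoH69 (SE 0.22, adjusted p = 0.0103). The latter call was lost with DESeq2 (adjusted p = 0.0545) and without MRC5_CoH196 replicate 3 (log2 -0.52, adjusted p = 0.061). The level was 0.81 ± 0.076 FPKM in MRC5_Mo and 0.43 ± 0.085 FPKM in MRC5_CoH196 (SD, n = 3).

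ADORA1 was almost unread in H196 cells. 1 count was found over the H196_Mo libraries and 0 counts over the H196_Co libraries, which allows up to 0.0589 CPM (3 counts over the group). MRC5_Mo held 115 counts, so, scaled to the library totals, its level was 104 times that of H196_Mo, with an exact 95% counting interval from 18.3 to 4142. The counts are too few to give a response of H196. The fourth adenosine receptor, ADORA3, had at most 1 count in any of the 15 libraries.

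The balance of the receptors therefore differed between the lines as well as with the partner. ADORA2B exceeded ADORA2A 16.8-fold to 22.6-fold by FPKM in the libraries of MRC5_Mo, 13.3-fold to 31.5-fold in MRC5_CoH69 and 7.43-fold to 11-fold in MRC5_CoH196. In H196 cells it exceeded ADORA2A 4.65-fold to 5.73-fold alone and 4.25-fold to 5.38-fold with MRC5. The MRC5_CoH196 libraries lay between the other fibroblasts and the tumour cells, without overlap on either side. These ratios rest on 6 to 37 counts of ADORA2A in each fibroblast library.

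ADA (gene ID 100, chr20:44619522-44652233, minus strand), which turns adenosine into inosine, rose in fibroblasts with H196. It stood at 8.53, 7.38 and 7.80 FPKM in MRC5_Mo, 9.22, 8.05 and 7.74 in MRC5_CoH69, and 13.35, 12.66 and 14.90 in MRC5_CoH196. Again only the fibroblasts with H196 stood apart. The rise was 1.95-fold over MRC5_Mo (log2 0.96, SE 0.093, adjusted p = 1.17e-09) and 1.84-fold over MRC5_CoH69 (log2 0.88, SE 0.093, adjusted p = 5.84e-09). On log2(FPKM + 1) it was 0.72 against MRC5_Mo, and ADA was the 1 gene of the 8 that remained a DEG there, beside 2997 of all 12819 genes. With the smaller pseudocount, on log2(FPKM + 0.1), ADORA2A (1.31), ADA (0.78) and ADORA1 (-0.78) passed both limits. ADORA2B (0.5806) also did, barely above the fold limit, beside 4306 of all 12819 genes. The share of H196 RNA, at most 0.779%, would add 0.284 CPM, where the mean rose by 8.71 CPM.

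In H196 cells ADA stood at 23.03, 24.95 and 25.43 FPKM alone and at 30.54, 30.49 and 26.99 with MRC5, without overlap. The difference of log2 0.34 (SE 0.084, adjusted p = 0.00767) was larger than the spread between replicates but under the fold limit. Both lines thus held more ADA RNA in this co-culture, the fibroblasts by the larger factor: the response of H196 minus that of MRC5 was log2 -0.60 (SE 0.13, adjusted p = 0.000227). H196_Mo exceeded MRC5_Mo 2.28-fold (log2 1.19, SE 0.092, adjusted p = 1.7e-12).

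ADK (gene ID 132, chr10:74151185-74714007, plus strand), which returns adenosine to AMP, went the other way in fibroblasts. It stood at 17.93, 19.20 and 20.81 FPKM in MRC5_Mo, 17.32, 16.62 and 16.90 in MRC5_CoH69, and 13.92, 15.04 and 14.57 in MRC5_CoH196. By FPKM the fibroblast groups did not overlap, and the level was lowest with H196. Against MRC5_Mo the log2 fold change was -0.25 in MRC5_CoH196 (SE 0.063, adjusted p = 0.000815), under the fold limit, and -0.18 in MRC5_CoH69 (SE 0.061, adjusted p = 0.0789). The latter became an adjusted p of 0.0268 without MRC5_Mo replicate 1. Between the co-cultures edgeR gave log2 -0.07 (SE 0.064, adjusted p = 0.309), whereas on log2(FPKM + 1) it was -0.21 (limma, adjusted p = 0.0045), or -0.08 relative to the median of all genes.

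In H196 cells ADK stood at 32.38, 27.71 and 28.47 FPKM alone and at 32.09, 30.95 and 31.21 with MRC5. The ranges overlapped by FPKM but not by CPM, where H196_Mo libraries lay between 46.0 and 52.1 and H196_Co libraries between 52.8 and 56.3. The log2 difference was 0.17 (SE 0.075, adjusted p = 0.111). The difference between the responses of H196 and MRC5 was log2 0.45 (SE 0.094, adjusted p = 0.000249). The lines grown alone differed by log2 0.16 (SE 0.066, adjusted p = 0.026), where the call at an adjusted p of 0.05 was lost when H196_Mo replicate 1, MRC5_Mo replicate 1 or MRC5_Mo replicate 2 was left out (adjusted p = 0.154, 0.156 and 0.0613). On log2(FPKM + 1) the same difference was 0.59 (limma, adjusted p = 1.1e-07), or 0.26 above the median of all genes, and on log2(FPKM + 0.1) it was 0.61, or 0.18 above it.

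Set beside each other within a library, the clearing enzymes shifted from ADK towards ADA in fibroblasts with H196. ADK exceeded ADA 2.1-fold to 2.67-fold by FPKM in MRC5_Mo and 1.88-fold to 2.18-fold in MRC5_CoH69, and the ratio was 0.978 to 1.19 in MRC5_CoH196. In H196 cells it was 1.11 to 1.41 alone and 1.02 to 1.16 with MRC5. The mean log2 ratio was 1.29 ± 0.19 in MRC5_Mo and 0.092 ± 0.14 in MRC5_CoH196 (SD, n = 3), a difference of -1.20, beside -0.26 for MRC5_CoH69 and -0.17 for H196_Co against their own line alone. A ratio within a library shows unequal levels and not which of the enzymes moved, and no test was made of it.

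**Figure D2:**
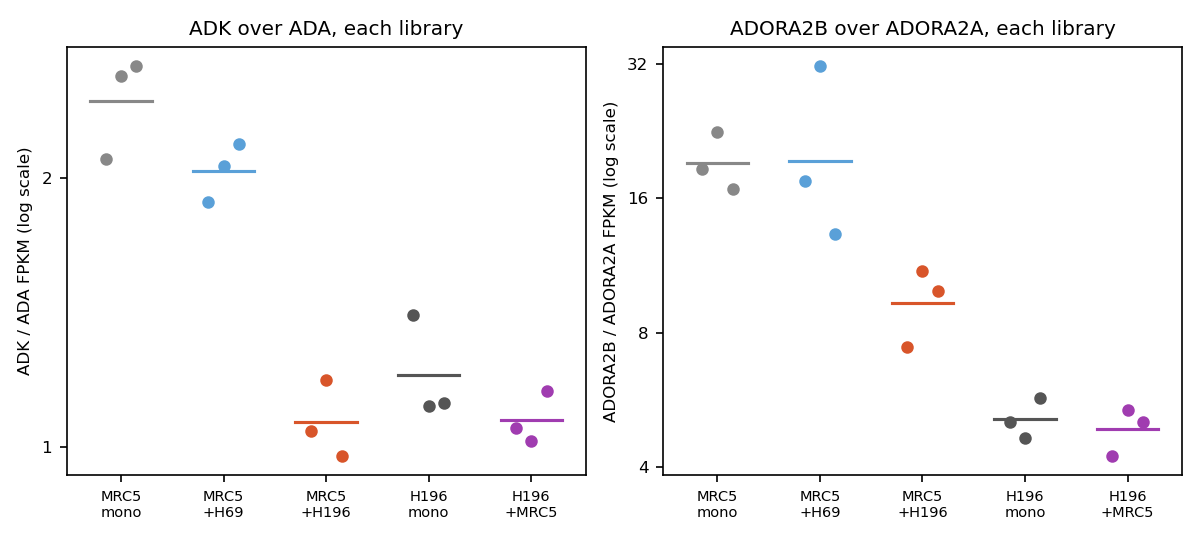
Ratio of ADK to ADA FPKM (left) and of ADORA2B to ADORA2A FPKM (right) in each library, on log2 axes, with the geometric mean of each group (n = 3) as a line. The MRC5_CoH196 libraries had ADK to ADA ratios of 0.978 to 1.19, within or near the range of the H196 libraries, and ADORA2B to ADORA2A ratios of 7.43 to 11, between those of the other fibroblasts and of H196.

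SLC29A1 (gene ID 2030, chr6:44219587-44234144, plus strand), the equilibrative transporter through which adenosine enters and leaves cells, differed between the lines and little with co-culture. It stood at 8.26, 8.08 and 9.36 FPKM in MRC5_Mo, 7.91, 8.53 and 7.80 in MRC5_CoH69, and 7.78, 7.29 and 6.14 in MRC5_CoH196. In H196_Mo it stood at 66.28, 76.01 and 77.23 FPKM, and in H196_Co at 67.77, 76.30 and 78.37. The H196 groups overlapped almost fully, and every H196 library was far above every fibroblast library. H196_Mo exceeded MRC5_Mo 6.40-fold (log2 2.68, SE 0.084, adjusted p = 1.08e-21). The log2 fold change of MRC5_CoH196 against MRC5_Mo was -0.12 with an interval from -0.29 to 0.058 (adjusted p = 0.24), and on log2(FPKM + 1) it was -0.25 (limma, adjusted p = 0.0146), or -0.12 relative to the median of all genes. For H196_Co against H196_Mo the interval ran from -0.072 to 0.24 (adjusted p = 0.488).

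**Figure D3:**
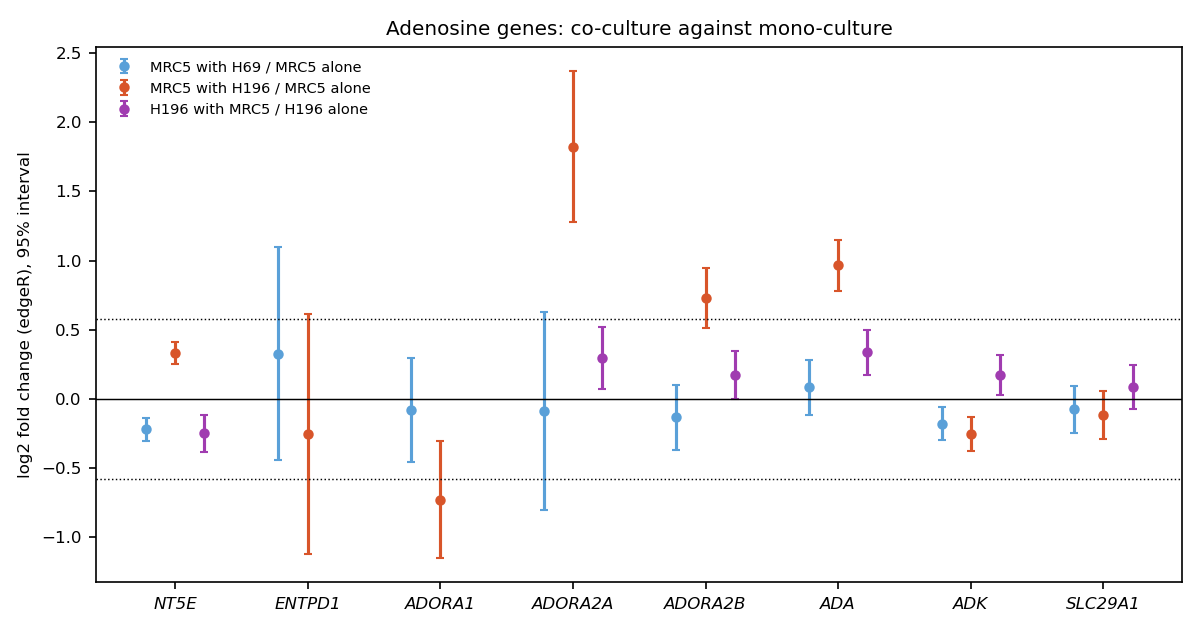
log2 fold change (edgeR) of the 8 genes in each co-culture against the same line alone, with 95% intervals; dotted lines mark the fold limit of 0.58, and genes that did not pass the filter are not drawn. With H196, ADORA2A (1.82), ADA (0.96) and ADORA2B (0.73) lay above the limit and ADORA1 (-0.73) below it; all values for H69 and for H196 cells lay between the limits.

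The lines grown alone differed in 5 of the 8 genes (SLC29A1, ADORA2A, ADORA2B and ADA higher in H196, ADORA1 lower), where 62.5% of all 13912 genes tested were DEGs, 31.3% higher and 31.2% lower. For 6 of the 8 the adjusted p was under 0.05 at some fold, beside 86.9% of all genes. In CPM scaled over both lines jointly, the libraries did not overlap for another set of 6, with ENTPD1 in place of ADK, beside 87.8% of all genes. This set depended on the scaling. In CPM scaled within each line, as given for single genes above, ADK did not overlap (29.1 to 33.7 in MRC5_Mo, 46.0 to 52.1 in H196_Mo). Nor did NT5E on that scale, whereas ENTPD1 overlapped (0.407 to 0.619 in MRC5_Mo, 0.508 to 0.536 in H196_Mo). By limma on log2(FPKM + 1), where the median of all genes was 0.32, 6 of the 8 passed both limits, ADK being the further one. Over all genes 7950 of 13912 did. The fibroblast comparisons with MRC5_Mo share their control libraries, so their values are set side by side and not correlated. The responses of H196 and of MRC5 to co-culture differed past both limits for ADORA2A (log2 -1.50, SE 0.29, adjusted p = 9.19e-05) and for ADA, that is 2 of 7 genes with a value, where 24% of all genes did. This count was 4 without MRC5_CoH196 replicate 3 and 1 without H196_Co replicate 3, H196_Mo replicate 3 or MRC5_Mo replicate 2. ADORA2B (log2 -0.54, SE 0.14, adjusted p = 0.00195) lay just under the fold limit, and SLC29A1 did not pass (log2 0.22, adjusted p = 0.136). In bulk RNA of a line, a change in every cell and a change in the share of cells that express a gene cannot be told apart.

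Genes around the 8 were taken from 7 lists of the pathway. Their calls stand against 17.2% of all genes higher and 14.7% lower in MRC5_CoH196 against MRC5_Mo. Over all genes 0.554% were DEGs in MRC5_CoH69 and 3.86% in H196_Co, each against the line alone. Of 13 genes for ATP release and other cell-surface nucleotide enzymes, 8 were tested in MRC5, and in MRC5_CoH196 against MRC5_Mo 1 rose and 3 fell (median log2 -0.015). ENPP1, which cleaves ATP to AMP outside the cell, had 509, 578 and 561 counts in MRC5_Mo and 166, 195 and 187 in MRC5_CoH196 (log2 -1.43, SE 0.079, adjusted p = 2.39e-14). ENPP2, a related enzyme known mainly for making lysophosphatidic acid, fell by 1.38 on the log2 scale, and ACP3, a phosphatase that can also make adenosine from AMP, fell by 0.69. PANX2, of the pannexin channel family, rose by 1.02 on the same scale. ENPP2 also fell in MRC5_CoH69 (log2 -0.74, SE 0.12, adjusted p = 0.000188), with counts of 133, 129 and 145 beside 241, 200 and 243 in MRC5_Mo. In H196 cells the 1 DEG of this list was ENTPD2, a surface enzyme that turns ATP into ADP (log2 0.90, SE 0.29, adjusted p = 0.0327), at 9 to 24 counts.

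Inside the cell, 6 of 19 tested enzymes of AMP and adenosine rose and 2 fell in MRC5_CoH196 against MRC5_Mo (median log2 -0.17). Over all genes 17.2% rose and 14.7% fell. AK4, a mitochondrial adenylate kinase, had 177 to 219 counts in MRC5_Mo, 248 to 269 in MRC5_CoH69 and 1069 to 1114 in MRC5_CoH196 (log2 2.62 against MRC5_Mo, SE 0.068, adjusted p = 5.23e-21). AMPD3, which deaminates AMP to IMP, rose in both lines, by log2 1.63 (SE 0.060, adjusted p = 7.99e-18) in MRC5_CoH196 and by 1.60 (SE 0.23, adjusted p = 6.39e-05) in H196_Co. In H196 its level was low, at 16 to 22 counts alone and 40 to 66 with MRC5. There AMPD2, of the same list, had 2473 to 2883 counts alone and 2699 to 2969 with MRC5. PNP, which acts on the inosine that ADA makes, had 431, 567 and 644 counts in MRC5_Mo and 256, 192 and 197 in MRC5_CoH196 (log2 -1.19, SE 0.12, adjusted p = 1.32e-09). ADA2, the secreted adenosine deaminase, rose by log2 1.07 from 15 to 20 counts to 28 to 36 (SE 0.25, adjusted p = 0.000544). So both deaminases of adenosine rose in these fibroblasts while PNP, the next enzyme after ADA, fell.

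Of the other nucleoside transporters, 4 of 6 were tested in MRC5. SLC29A4, a transporter of monoamines and adenosine, and SLC28A3, which carries nucleosides with sodium, rose by log2 0.71 and 0.68 (SE 0.065 and 0.18, adjusted p = 4.33e-10 and 0.00161), and SLC29A3, an intracellular carrier, fell by 1.42 (SE 0.19, adjusted p = 3.88e-07). SLC29A3 had 79, 61 and 64 counts in MRC5_Mo and 27, 20 and 21 in MRC5_CoH196. Among 16 other purinergic receptors 4 were tested, and P2RX6, a subunit of ATP-gated channels, fell by 1.07 on the log2 scale (SE 0.24, adjusted p = 0.00024).

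Downstream of the receptors, 7 of 19 G proteins, adenylyl cyclases and cAMP phosphodiesterases rose in MRC5_CoH196 and 1 fell (median log2 0.23), beside 17.2% and 14.7% of all genes. The largest changes were in phosphodiesterases, which degrade cAMP. PDE4C had 8, 10 and 6.01 counts in MRC5_Mo, 23, 16 and 14 in MRC5_CoH69, and 113, 128 and 121 in MRC5_CoH196. It rose by log2 4.05 with H196 (SE 0.22, adjusted p = 1.34e-14) and by 1.14 with H69 (SE 0.32, adjusted p = 0.0322). PDE8B (log2 2.84) and PDE4D (log2 2.17) rose with H196 as well, and ADCY1, an adenylyl cyclase at 2 to 15 counts in these libraries, fell (log2 -1.26, SE 0.47, adjusted p = 0.0197). In H196_Co the 1 DEG of this list was PDE3A, which fell by 1.3 on the log2 scale (SE 0.28, adjusted p = 0.00259).

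Of 12 genes known to be transcribed after a rise in cAMP, 11 were tested in each line. In MRC5_CoH196, 6 rose and 2 fell against MRC5_Mo, beside 17.2% and 14.7% of all genes, with a median log2 fold change of 0.89. DUSP1, a phosphatase of MAP kinases, had 2059, 2441 and 2413 counts in MRC5_Mo, 2698, 2480 and 2446 in MRC5_CoH69 and 8517, 6786 and 8944 in MRC5_CoH196 (log2 1.97, SE 0.073, adjusted p = 9.31e-18). The clock gene PER1 rose by 1.71 and the transcription factor FOSB by 1.10 on the same scale, the latter from 8 to 12 counts to 10 to 28, which overlap. The largest rise of the list, log2 2.17, was that of PDE4D, which is also among the phosphodiesterases above. Mean levels were lower in MRC5_CoH196 than in MRC5_Mo for RGS2 (2.19 beside 3.48 CPM), FOS (1.22 beside 1.91 CPM) and CREM (10.9 beside 15.5 CPM). In H196_Co, 1 of the 11 rose and 2 fell (median log2 -0.19): FOS rose by log2 0.61, and the nuclear receptors NR4A2 and NR4A3 fell by 1.12 and 1.45. NR4A2 had 200, 238 and 244 counts in H196_Mo and 90, 90 and 119 in H196_Co. Many of these genes also respond to other stimuli, and cAMP itself was not measured.

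As a reference for the low oxygen response, 12 genes known to rise when oxygen is low were read beside the adenosine genes. All 12 rose in MRC5_CoH196 (median log2 2.70), among them CA9, a carbonic anhydrase, from 3 to 11 counts to 712 to 905. In H196_Co all 10 that were tested rose (median log2 1.26), with ANKRD37 at log2 3.23 (SE 0.18, adjusted p = 9.4e-11). In MRC5_CoH69 the median was log2 0.22, and 6 of the 12 had an adjusted p under 0.05 at some fold by edgeR, beside 6.7% of all genes. NT5E was higher in MRC5_CoH196 and lower in H196_Co and MRC5_CoH69 than in the lines alone. ADA, ADORA2A and ADORA2B had positive log2 fold changes in MRC5_CoH196 (0.96, 1.82 and 0.73) and in H196_Co (0.34, 0.30 and 0.17). Of these only ADA had an adjusted p under 0.05 in H196_Co by edgeR. ADK and SLC29A1 had negative values in MRC5_CoH196 (-0.25 and -0.12) and positive ones in H196_Co (0.17 and 0.08). Oxygen was not measured, and its part in the values of the adenosine genes was not tested.

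**Figure D4:**
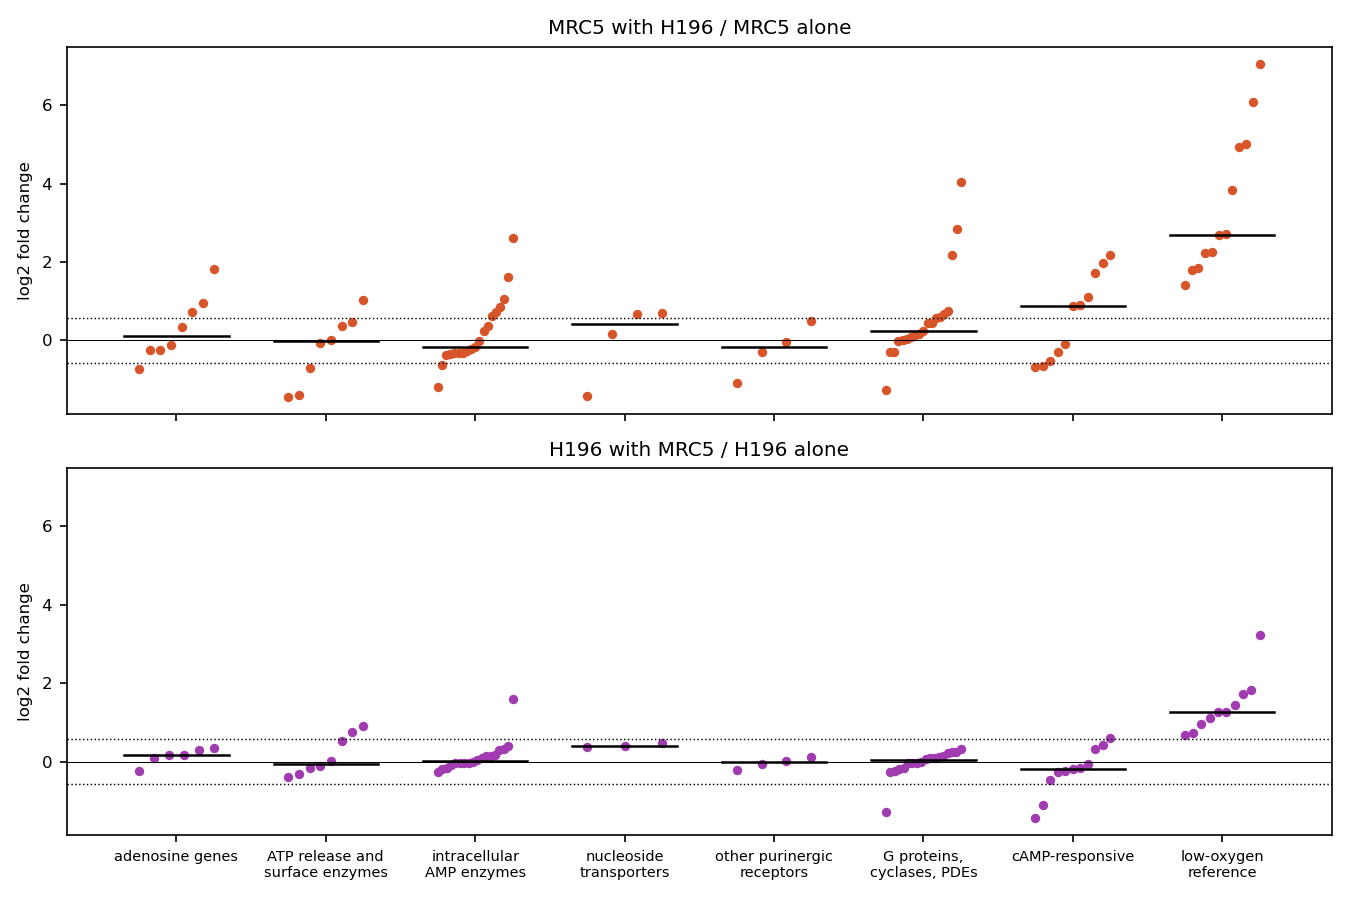
log2 fold change (edgeR) of each tested gene of the 8 adenosine genes and of the 7 lists around them, sorted within each list, for MRC5_CoH196 against MRC5_Mo (top) and H196_Co against H196_Mo (bottom); black lines are list medians and dotted lines the fold limit of 0.58. The low-oxygen reference genes had medians of 2.70 and 1.26, the cAMP-responsive genes of 0.89 and -0.19, and the adenosine genes of 0.11 and 0.17.

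The genes whose pattern was most like that of NT5E were sought over the 15 libraries, on log2 CPM after the mean of the own line was taken away, among 11743 genes tested in both tables. They were HMGA2, a chromatin protein (Pearson r = 0.98), FGF5, a fibroblast growth factor (0.97), LRRC8C, a subunit of volume-regulated anion channels (0.94), ZCCHC2 (0.93) and MSH6, a DNA mismatch repair protein (0.93). HMGA2 and FGF5 were, like NT5E, higher in MRC5_CoH196 (log2 0.49 and 0.51) and lower in MRC5_CoH69 (-0.24 and -0.27) and in H196_Co (-0.38 and -0.24) than in the line alone. The likeness is a description of 5 group patterns with 3 libraries each, and these are the highest of many values.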

How the data were processed

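RNA of 15 cultures was sequenced after enrichment of mRNA with oligo(dT). According to the submitters' processing notes the authors used HISAT2 2.1.0, Bowtie2 2.3.4.3 and RSEM 1.3.1 with GRCh38.p13. The deposited tables hold expected counts from RSEM and FPKM per gene and library, 1 table for each line, and list genes of type mRNA only. A further 30 columns of per-library values (18 and 12) and the authors' own comparisons, which hold fold changes and p-values, were not used. Expected counts (92.1% and 93.7% of them whole) were rounded, filtered with filterByExpr, scaled by TMM and tested with edgeR 4.0.16 (R 4.3.3), within each table. The lines and their responses were compared in 1 fit of all libraries, a gene absent from a table taken as 0.

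Alternatives were DESeq2 1.42.0 (size factors and Wald test), limma 3.58.1 on log2 FPKM with a pseudocount of 1 or 0.1, fold limits and filters set otherwise, only the groups compared, a replicate block, and each library left out. The fitting was tested on simulated data. Intervals from counts cover counting error only, and 3 counts correspond to 0.156 to 0.187 CPM in 1 library. The 8 genes and the lists were chosen with earlier results of these data known. From each list up to 4 DEGs with the largest absolute log2 fold change per comparison were named. The ratio of ADK to ADA and its alternatives (counts in place of FPKM, libraries left out) were added after the data had been seen, as were ADORA3 and the promoter motifs.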

Additional observations from a re-analysis of the deposited data

Results flagged for a closer look

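For 5 of the 8 genes the response to co-culture differed between H196 cells (H196_Co minus H196_Mo) and fibroblasts (MRC5_CoH196 minus MRC5_Mo) by edgeR's interaction test at an adjusted p under 0.05. The difference was log2 -1.50 for ADORA2A, -0.60 for ADA, -0.56 for NT5E, -0.54 for ADORA2B and 0.45 for ADK. By that test 49.8% of all genes had such a p. Within H196 cells, by edgeR, NT5E (log2 -0.25) and ADA (0.34) had an adjusted p under 0.05 for co-culture, and ADORA2A (0.30), ADORA2B (0.17) and ADK (0.17) did not.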

How the results depend on the processing

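Beside the libraries left out, 334 of 345 alternative values of single genes kept their direction and their side of an adjusted p of 0.05, and 301 of 312 did so with a library left out. With a fold limit of 1 the genes past the limits were 1 for MRC5_CoH196 against MRC5_Mo, 1 against MRC5_CoH69 and 1 for the difference of responses. Over all genes 1564 and 1353 of 12819 and 1250 of 13912 passed. With no fold limit, of the 8 genes 2 passed in H196_Co, 1 in MRC5_CoH69 and 5 for the difference of responses. Over all genes 2538 of 12806, 859 of 12819 and 6924 of 13912 did. On log2(FPKM + 1) the genes past the limits were 1 for MRC5_CoH196 against MRC5_Mo, 2 against MRC5_CoH69 and 0 for the difference of responses (5 at an adjusted p under 0.05). The last was 1 on log2(FPKM + 0.1). Over all genes 2997 and 2567 of 12819 and 2427 of 13912 passed, the last being 3611 on log2(FPKM + 0.1). On that scale ADORA2A, ADORA2B, ADA and ADORA1 passed against MRC5_Mo and against MRC5_CoH69, beside 4306 and 3848 of 12819 genes. Between the lines alone the genes past the limits were 6 on both FPKM scales, with ADK added, beside 5 by edgeR. Over all genes 7950 and 9229 of 13912 passed on these scales, beside 8700. The pseudocount of 1 understates changes of low genes by construction, and the part of depth scaling was not tested. With a library left out the count ranged from 1 to 4 for the difference of responses.

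Directions turned for NT5E between the lines alone (log2 0.39 on both FPKM scales) and, without any call, for ENTPD1 in MRC5_CoH196 (0.18 and 0.034 on log2(FPKM + 0.1) and log2(FPKM + 1), and -0.59 to 0.18 with a library left out, the highest without MRC5_CoH196 replicate 3), for ENTPD1 in the difference of responses (-0.082 and -0.021 on the same scales), for ADORA2A in MRC5_CoH69 (-0.23 to 0.13, the highest without its replicate 2) and for SLC29A1 between the co-cultures (-0.11 to 0.054, the highest without MRC5_CoH196 replicate 3). The causes were not tested. Same-numbered libraries showed no shared deviation (r from -0.15 to 0.081 within tables). The labels do not say whether the numbers pair samples, and r from so few libraries cannot settle it. With a replicate block the genes past the limits were 4, 0, 4, 0, 5 and 2 for MRC5_CoH196 and MRC5_CoH69 against MRC5_Mo, the co-cultures, H196_Co, the lines and the responses, as without it. Depth limits what can be said of ENTPD1, ADORA1 and, in fibroblasts, ADORA2A.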
